A study of Mus musculus with 50 samples.

Results

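Replication-dependent histone genes encode the bulk histones H1, H2A, H2B, H3 and H4 that package newly made DNA. They were taken as the genes of the RPKM table whose names begin with Hist1 to Hist4 and one of these families, with an RPKM (reads per kilobase of gene, scaled to library size) above 0 in at least 10 of the 50 tumors. This gave 68 members of the 37701 genes in the table. The set was chosen by a measured value: its members Hist1h2ao and Hist1h2ap were lower in ligand-treated than in vehicle-treated tumors. Every difference from vehicle below is therefore a description and not a test. Of the 70 names that match, Hist2h2aa1 and Hist2h3c1 fell outside, both listed at 0 in all tumors, and the members nearest the limit were Hist1h3h, above 0 in 35 tumors, Hist1h2aa in 38, Hist1h1t in 39 and Hist1h4f in 40.

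The tumors arose in the mammary glands of p53R270H/+WAPCre mice, which carry 1 mutant copy of p53 that is switched on by a Cre driven by the whey acidic protein promoter in mammary epithelium. Mice were injected subcutaneously every other day, from an age of 8 weeks, with vehicle, insulin, glargine (a long-acting insulin analogue), X10 (an insulin analogue that binds the IGF1 receptor strongly) or IGF1, with 10 tumors in each of the 5 groups and each tumor from its own mouse. Tumors were collected at 1 cm3, 24 h after the last dose. The submitters chose tumors of the EMT-like type (tumors with features of epithelial-to-mesenchymal transition) whose latency lay nearest to their group's median, the controls carry the title Untreated and were taken as vehicle, and 1 tumor titled IFG1_132 was taken as IGF1.

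In S phase a cell raises the messages of these genes together and removes them again when DNA synthesis ends. Unlike almost all other messages they typically carry no poly-A tail: their 3' end is a short stem-loop that the stem-loop binding protein Slbp holds during processing, and Npat switches on their transcription from clustered gene copies. A library made from poly-A RNA, as here, therefore is not built to catch messages of this kind, and fewer cells in S phase cannot be told apart from less tailed RNA per cell.

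In these genes the stem-loop could be read from the annotated transcript of 44 of the 68 members, and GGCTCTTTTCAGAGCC was the most frequent of 8 forms, in 24 members. The stem-loops of the members that the results turn on are shown because they are the feature that sets these messages apart. Capitals mark the 16 bases of the stem and loop, between up to 5 flanking bases (GENCODE M21, GRCm38). They lie at chr13:21810898-21810913 on the plus strand for Hist1h2ao, chr13:21833029-21833044 on the minus strand for Hist1h2ap, chr13:23739512-23739527 on the plus strand for Hist1h1c, chr13:22040966-22040981 on the minus strand for Hist1h4i and chr3:96246032-96246047 on the plus strand for Hist2h2aa2.
Hist1h2ao: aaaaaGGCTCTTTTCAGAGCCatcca
Hist1h2ap: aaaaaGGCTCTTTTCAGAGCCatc
Hist1h1c: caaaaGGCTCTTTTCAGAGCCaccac
Hist1h4i: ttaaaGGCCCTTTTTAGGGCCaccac
Hist2h2aa2: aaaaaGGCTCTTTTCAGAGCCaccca

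Hist1h2ao (ENSMUSG00000094248, chr13:21810465-21810944, plus strand) and Hist1h2ap (ENSMUSG00000094777, chr13:21833026-21833507, minus strand) are single-exon H2A genes. Their annotated transcripts were identical at 452 of 452 aligned bases, and 353 of the 381 windows of 100 bases in Hist1h2ao also occur in Hist1h2ap. Only 7.35% of the windows of Hist1h2ao and 7.83% of those of Hist1h2ap were found in no other gene, so that the split of reads between both genes is uncertain. The promoter windows below run from 250 bases before to 50 after the gene start in RefSeq (GRCm38.p6), at chr13:21810117-21810416 on the plus strand, chr13:21833426-21833725 on the minus strand and chr3:96245247-96245546 on the plus strand. RefSeq and GENCODE starts differ for the H2A pair. The window of Hist1h2ao ends before the GENCODE start given above, whereas that of Hist1h2ap holds its own, so both cover unlike stretches around these starts. The windows are shown to let the identical pair be set beside Hist2h2aa2, the member that went most against proliferation. Capitals mark the motifs CCAAT and TATAA on either strand (ATTGG and TTATA).
Hist1h2ao: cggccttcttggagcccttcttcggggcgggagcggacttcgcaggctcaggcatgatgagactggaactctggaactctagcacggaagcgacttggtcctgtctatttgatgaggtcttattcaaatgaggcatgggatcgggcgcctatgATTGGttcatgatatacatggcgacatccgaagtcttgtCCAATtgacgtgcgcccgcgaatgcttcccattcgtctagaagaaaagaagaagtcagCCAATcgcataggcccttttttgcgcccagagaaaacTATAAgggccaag
Hist1h2ap: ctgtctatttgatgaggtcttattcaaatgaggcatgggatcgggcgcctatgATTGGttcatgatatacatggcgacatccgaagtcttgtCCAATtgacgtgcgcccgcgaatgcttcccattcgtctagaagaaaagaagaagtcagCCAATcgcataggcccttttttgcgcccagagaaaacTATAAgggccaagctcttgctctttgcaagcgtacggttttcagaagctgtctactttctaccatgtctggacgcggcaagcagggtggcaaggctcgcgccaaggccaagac
Hist2h2aa2: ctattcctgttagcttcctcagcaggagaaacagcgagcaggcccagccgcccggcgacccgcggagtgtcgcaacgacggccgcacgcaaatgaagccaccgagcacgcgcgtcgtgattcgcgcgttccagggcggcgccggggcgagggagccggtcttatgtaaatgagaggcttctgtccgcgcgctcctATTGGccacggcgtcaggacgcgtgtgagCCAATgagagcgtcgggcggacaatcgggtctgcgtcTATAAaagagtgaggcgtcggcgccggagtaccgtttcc

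Over the stretch that both windows cover, those of Hist1h2ao and Hist1h2ap were identical at 200 of 200 bases, and each held 3 copies of CCAAT and 1 of TATAA. RefSeq windows were found for 59 members. CCAAT, the core of the site that NF-Y binds, was in 50 of them (84.7%) against 37.4% of all 32851 windows of the same length, and TATAA was in 48 (81.4%) against 24.9%. The octamer ATTTGCAT, read on both strands, was in 13 (22.0%) against 1.74%, in 7 of the 17 H2A and 6 of the 16 H2B windows. Copies of a motif on opposite strands can overlap, and a match describes the letters in the window and not a bound site.

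Library sizes, recovered from the steps between the deposited values, lay between 26.6 M and 51.9 M reads per tumor. In M reads, the group medians were 44.0 in vehicle, 39.7 in insulin, 41.0 in glargine, 35.4 in X10 and 42.5 in IGF1. Tumor 160 of the IGF1 group stood apart from the other 49. It had the lowest Mki67 of all tumors and the highest mean z-score over the 30 members tested, and it held the highest value of 15 of the 68 members. The calls of the members on Mki67 and on the S phase score are given with and without it, and those of other genes with it unless stated. Marker lists of 6 cell types, among them the epithelium in which mutant p53 is switched on, were present at varying levels in every group. Those of epithelium were summed from 9.58 to 5098 RPKM and those of skeletal muscle from 3.05 to 4534 RPKM, and no marker was at 0 in all tumors. The median epithelial sum was 363 RPKM in vehicle and 271, 273, 309 and 140 RPKM with insulin, glargine, X10 and IGF1. In the same order the median leukocyte sum was 106 RPKM in vehicle, its lowest, and 142, 164, 140 and 152 RPKM, and the median fibroblast sum was 14085 RPKM in vehicle and 15748, 11263, 9549.6 and 8367 RPKM. The median endothelial sum was 68.4 RPKM in vehicle, also its lowest, and 79.4, 76.1, 72.2 and 73.3 RPKM in that order. Over 50 tumors the 6 sums had an r between -0.24 and 0.19 with Hist1h2ao. The rho lay between -0.39 (endothelium) and 0.20 (fibroblast) and was -0.30 for leukocytes, and the part of cell composition in the results below was not tested.

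**Figure D1:**
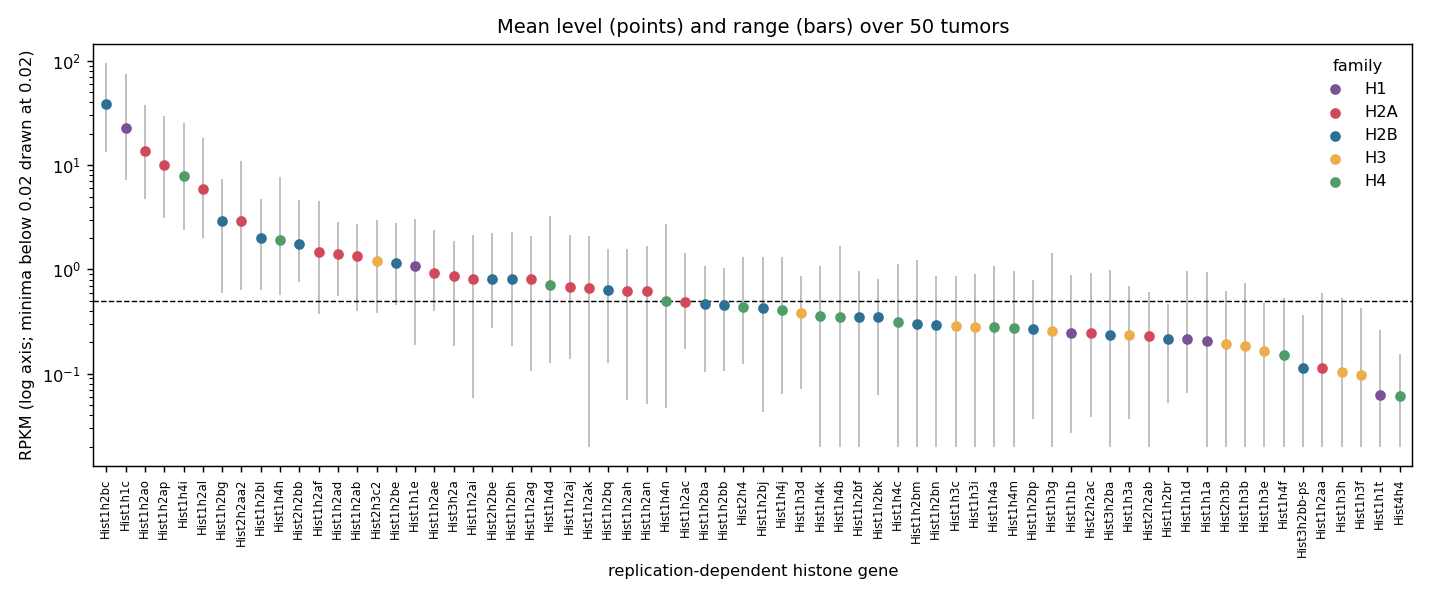
Mean RPKM over 50 tumors (points, coloured by histone family) and lowest to highest tumor (bars) for each of the 68 members on a log axis. The dashed line is a mean RPKM of 0.5; 30 members lie above it, and Hist1h2bc and Hist1h1c lead.

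Most members were weakly represented. The median of the 68 mean levels was 0.43 RPKM, only 17 members reached a mean of 1 RPKM, and 30 reached the 0.5 RPKM that was set as the minimum for testing. By contrast the S phase gene Pcna, the sliding clamp of DNA polymerase, had a mean of 96.7 RPKM and Slbp itself 65.4 RPKM. The 30 members tested had means of 8.88 to 1472 reads per tumor, and the 38 below the limit had at most 49.8.

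The linker histone H1 gave 2 tested members of 6, H2A 15 of 19, H2B 8 of 19, H3 1 of 11 and H4 4 of 13. H2B held 38.0% of the summed mean level and H2A 31.7%, while H3, with 11 genes, held 2.45%. Hist1h2bc alone had a mean of 39.0 RPKM and Hist1h1c 23.0, and together they made up 44.8% of the sum. The transcript of Hist1h2bc (H2B, chr13:23684199-23692908) is spliced, with 2 exons, and holds no stem-loop. Hist1h1c (H1.2, chr13:23738808-23740367) runs on for 840 bases after its stem-loop and ends with a poly-A signal. In all, 24 members had no stem-loop in the annotated transcript (41.8% of the summed level, most of it Hist1h2bc) and 14 had a poly-A signal in its last 50 bases (21.2%). Of these 24 transcripts 17 are under 500 bases long, and a stem-loop past the end of a short annotation would not be seen. The gene length behind the RPKM also differed from the longest annotated transcript in 42 of the 68 members (736 against 1156 bases for Hist1h2bc). The next were Hist1h2ao with 13.7 RPKM, Hist1h2ap with 10.1, the H4 gene Hist1h4i with 7.92 and Hist1h2al with 5.91. Hist1h2al is annotated as a processed pseudogene at chr13:51202727-51203065, away from the 55 other Hist1 members, which lie between chr13:21715763-23934851.

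The H2A pair was highest in vehicle tumors. In these the mean of Mki67 was the lowest of the 5 groups. The mean z-score of 29 S phase genes (the S phase score) was 0.19 ± 0.55 (SD, n = 10) in vehicle, 0.15 ± 0.90 with IGF1, -0.07 ± 0.52 with glargine, -0.12 ± 0.46 with insulin and -0.16 ± 0.85 with X10, and the groups overlapped. The order of these means rested on single tumors: without IGF1 tumor 160 the IGF1 mean was 0.34, and without X10 tumor 100 the X10 mean was 0.05. The medians were 0.27 in vehicle, 0.16 with X10, 0.16 with IGF1, -0.0002 with insulin and -0.18 with glargine. The part of this score in the differences from vehicle was not tested. Hist1h2ao ranged from 12.6 to 38.0 RPKM around a median of 23.0 in vehicle. Its range was 6.17 to 13.3 (median 9.76) with insulin, 8.63 to 19.0 (median 10.8) with glargine, 4.71 to 12.9 (median 7.05) with X10 and 4.85 to 25.0 (median 14.6) with IGF1. The groups overlapped, IGF1 the most: 8 of 10 insulin, 7 of 10 glargine, 8 of 10 X10 and 4 of 10 IGF1 tumors lay below every vehicle tumor. The rest lay within the vehicle range. Hist1h2ap ranged from 7.59 to 29.5 RPKM (median 17.0) in vehicle, 4.07 to 8.96 (median 6.97) with insulin, 5.59 to 15.4 (median 8.23) with glargine, 3.70 to 8.98 (median 6.59) with X10 and 3.10 to 22.3 (median 11.1) with IGF1. Here 7 insulin, 2 glargine, 6 X10 and 2 IGF1 tumors lay below every vehicle tumor, and the rest again lay within the vehicle range. The ratio of Hist1h2ao to Hist1h2ap had a median of 1.36 and was above 1 in 49 of 50 tumors.

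**Figure D2:**
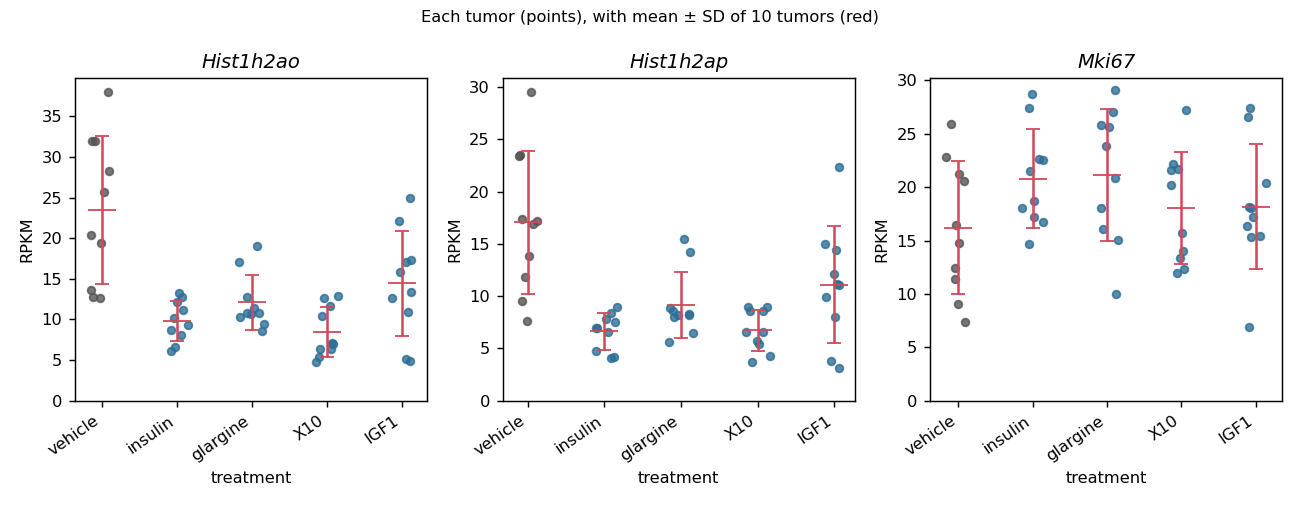
RPKM of Hist1h2ao, Hist1h2ap and Mki67 in each of 50 tumors (points) by treatment, with the mean and SD of 10 tumors in red. Both H2A genes are highest in vehicle (means 23.5 and 17.1), where the mean of Mki67 is lowest (16.2).

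In log2(RPKM + 0.5), the scale of all differences below, Hist1h2ao differed from vehicle by -1.15 (SE 0.23) with insulin, -0.87 (SE 0.23) with glargine, -1.40 (SE 0.23) with X10 and -0.74 (SE 0.23) with IGF1. For Hist1h2ap the differences were -1.24, -0.82, -1.23 and -0.68, each with an SE of 0.24. These contrasts chose the members, so the counts that follow are a description and nothing is read from them. At an adjusted p under 0.05 in limma over 16733 genes there were 2 members in X10 against vehicle (0.0657% of all genes called) and in the 4 ligands pooled (0.0239% called), and 0 with insulin (0.0% called), glargine (0.0% called) and IGF1 (0.00598% called). At an unadjusted p under 0.05 there were 12 members with insulin (11.1% of all genes), 3 with glargine (6.23%), 10 with X10 (11.0%), 2 with IGF1 (8.84%) and 8 with the ligands pooled (9.28%).

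Mki67, the proliferation marker, did not pass in these comparisons. It ranged from 7.41 to 25.9 RPKM (median 15.6) in vehicle, 14.7 to 28.7 (median 20.1) with insulin, 9.97 to 29.1 (median 22.4) with glargine, 11.9 to 27.2 (median 18.0) with X10 and 6.88 to 27.4 (median 17.6) with IGF1, and the groups overlapped throughout. The difference of the 4 ligands from vehicle was 0.30 (SE 0.16, limma adjusted p = 0.568), and with single ligands it was 0.42 (insulin, adjusted p = 0.441), 0.41 (glargine, 0.789), 0.20 (X10, 0.767) and 0.18 (IGF1, 0.887). Slbp differed by -0.10 (SE 0.12, adjusted p = 0.840) and Npat by 0.11 (SE 0.18, adjusted p = 0.910).

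Counted over all 30 members tested, Hist1h2ao and Hist1h2ap included, 28 had a negative difference with insulin, 24 with glargine, 25 with X10 and 18 with IGF1, with medians of -0.35, -0.16, -0.35 and -0.03; the medians of all genes were 0.03, 0.02, -0.03 and 0.02. Comparisons with vehicle share the same 10 control tumors. The members that were most alike in this were the 12 tested H2A members of the Hist1 cluster other than the processed pseudogene Hist1h2al. One of the 12, Hist1h2aj, is itself annotated as an unprocessed pseudogene, and 8.30% of its windows were found in no other gene. This grouping was made after the values were seen and has no test. All 12 were below vehicle with insulin (median -0.46), glargine (-0.29) and X10 (-0.53), and 10 of 12 with IGF1 (-0.10). Of the 18 other members 16, 12, 13 and 8 were below vehicle, with medians of -0.19, -0.10, -0.22 and 0.01.

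The 3 most abundant of the 18 others overlapped across all treatments. Hist1h2bc ranged from 23.6 to 66.8 RPKM (median 32.2) in vehicle, 14.4 to 64.05 (median 28.5) with insulin, 13.5 to 73.3 (median 29.4) with glargine, 18.6 to 75.5 (median 44.3) with X10 and 18.6 to 95.3 (median 34.6) with IGF1. Hist1h1c ranged from 10.6 to 74.8 RPKM (median 22.6) in vehicle, 14.8 to 42.5 (median 16.4) with insulin, 13.0 to 52.0 (median 23.1) with glargine, 7.26 to 36.1 (median 18.3) with X10 and 14.5 to 52.6 (median 18.5) with IGF1. Hist1h4i ranged from 3.67 to 20.6 RPKM (median 8.06) in vehicle, 2.40 to 13.4 (median 5.37) with insulin, 2.83 to 21.8 (median 7.23) with glargine, 3.93 to 10.3 (median 5.69) with X10 and 5.27 to 25.5 (median 7.39) with IGF1. In each of these genes the highest tumor of every group lay above the median of every other group, and the medians were not ordered in the same way.

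**Figure D3:**
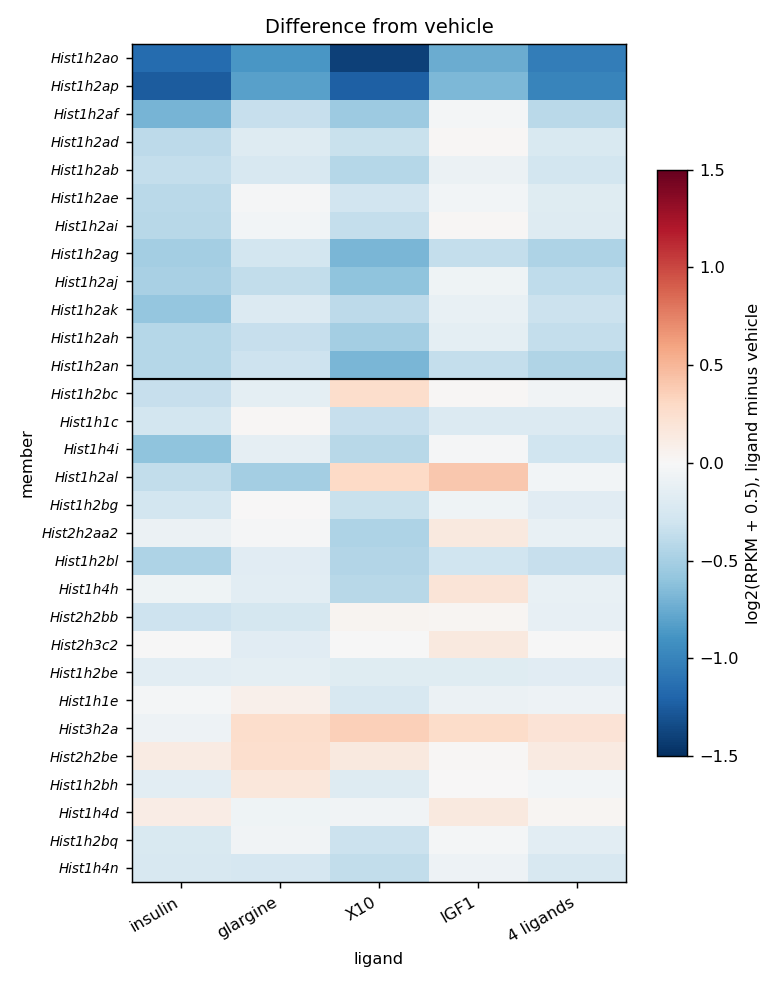
Difference of each ligand, and of the 4 ligands pooled, from vehicle in log2(RPKM + 0.5) for the 30 members tested (blue lower, red higher). The 12 Hist1 H2A genes stand above the line, with Hist1h2ao and Hist1h2ap at the top, between -0.68 and -1.40 in every single ligand.

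These 12 genes also varied together from tumor to tumor. Over 50 tumors the 66 pairs among them had a mean Pearson's r of 0.68 (lowest 0.50), against 0.15 over the 216 pairs with the other 18 members and 0.34 over all 435 pairs; centred within treatments the first was 0.63. Among the others, the 28 pairs of H2B genes had a mean r of 0.53 and the 6 pairs of H4 genes 0.48, and Hist1h2bc had an r of 0.64 with Hist1h1c and -0.11 with Hist1h2ao. The closest pair was Hist1h2ao with Hist1h2ap (r = 0.967). These points share libraries, and 10 of the 12 genes had under 50% of their windows to themselves. Of the other two, Hist1h2ak had 89.5% of its windows to itself and Hist1h2ae 69.3%. The transcript of Hist1h2ak was nonetheless identical to those of Hist1h2ao and Hist1h2ap at 381 of 393 aligned bases. It had an r of 0.68 with Hist1h2ao and 0.73 with Hist1h2ap, and it differed from vehicle by -0.58 with insulin, -0.21 with glargine, -0.39 with X10 and -0.12 with IGF1, each with an SE of 0.20. For Hist1h2ae r was 0.53 with Hist1h2ao and 0.58 with Hist1h2ap, and the differences from vehicle were -0.41 with insulin, -0.01 with glargine, -0.29 with X10 and -0.04 with IGF1, each with an SE of 0.17. Many of these genes lie head to head with an H2B gene and share the stretch between both starts. In 15 pairs of genes with starts within 1000 bases, r ran from -0.02 to 0.78 with a median of 0.24, and Hist1h2ao had an r of 0.17 with Hist1h2bq, the H2B gene 268 bases away. The highest of these pairs was Hist1h2ac with Hist1h2bc. Many of the pairs held a gene under the minimum for testing, such as Hist1h2bn with a mean of 4.62 reads per tumor. A low r there is hard to read. Other pairs with both genes tested were Hist1h2bl with Hist1h2ai (r = 0.47) and Hist1h2ae with Hist1h2bg (0.43).

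**Figure D4:**
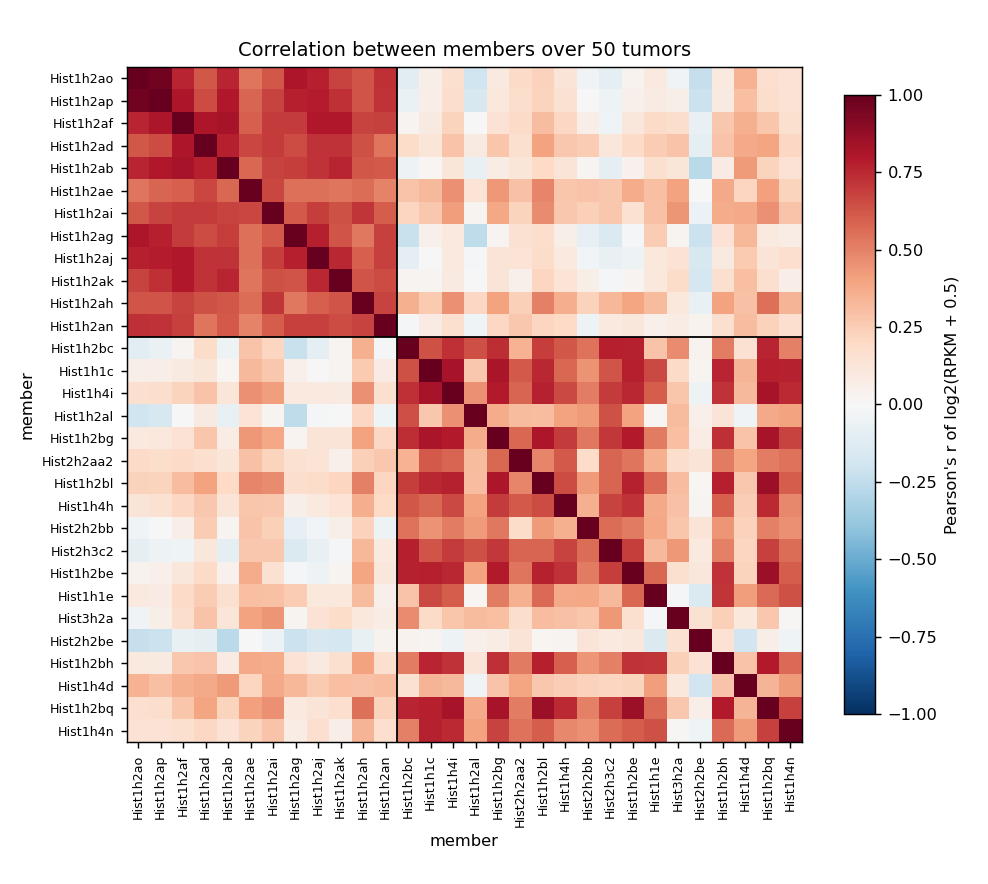
Pearson's r of log2(RPKM + 0.5) between the 30 members tested over 50 tumors (red positive, blue negative). The lines set off the 12 Hist1 H2A genes, whose pairs have a mean r of 0.68, from the other 18 members.

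Whether the strongly mitogenic ligands differed from the weaker ones is a question that the choice of members did not use. X10 and IGF1 tumors together were compared with insulin and glargine tumors, and in limma no member passed (0.323% of 16733 genes called; limma voom on the recovered reads also called 0). At an unadjusted p under 0.05 there were 3 members (11.3% of all genes), Hist1h2al, Hist2h2bb and Hist3h2a. Hist1h2ao differed by -0.06 (95% interval -0.39 to 0.27) and Hist1h2ap by 0.08 (-0.27 to 0.42). The nearest to the threshold was Hist1h2al. It ranged from 2.65 to 6.56 RPKM (median 3.99) with insulin, 2.22 to 8.49 (median 3.47) with glargine, 3.20 to 11.2 (median 7.17) with X10 and 1.98 to 18.1 (median 7.18) with IGF1. The groups overlapped, and the difference of 0.79 (SE 0.20) had an adjusted p of 0.0510. That call moved across the threshold under 3 alternatives.

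In the 6 pairs of single ligands no member passed either, by limma or limma voom. The shares of all genes called were 0.0% for glargine against insulin, 0.102% for X10 against insulin, 0.00598% for IGF1 against insulin, 1.78% for X10 against glargine, 0.0% for IGF1 against glargine and 0.0% for IGF1 against X10. At an unadjusted p under 0.05 the members numbered 3, 2, 10, 2, 1 and 9 in that order, beside 3.96%, 11.3%, 7.30%, 11.6%, 6.98% and 11.7% of all genes. The H2A pair was higher with IGF1 than with X10, by 0.66 (95% interval 0.19 to 1.13, adjusted p = 0.344) for Hist1h2ao and 0.55 (0.07 to 1.04, adjusted p = 0.386) for Hist1h2ap, and neither passed. Hist3h2a, an H2A gene outside the main cluster, differed between X10 and insulin by 0.44 (0.15 to 0.73, adjusted p = 0.172) and was named here after its values were seen.

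Mki67 was then used as a measure of proliferation across tumors within treatments. Of 16732 genes, 33.3% had a slope on Mki67 that passed in limma, more of them positive (22.6%) than negative (10.7%). Of the 30 members 5 passed and all 5 were negative. Hist2h2aa2, an H2A gene of the cluster on chromosome 3, had a slope of -0.78 log2 units per log2 unit of Mki67 (SE 0.16, adjusted p = 0.000227). The slopes were -0.54 for Hist1h4i (adjusted p = 0.0238), -0.44 for the H4 gene Hist1h4n (0.0288), -0.51 for Hist1h2al (0.0295) and -0.51 for Hist1h1c (0.0301). The largest positive slopes by p were 0.22 for Hist1h2ad (adjusted p = 0.119), 0.27 for Hist1h2af (0.182) and 0.22 for Hist1h2ab (0.182), all Hist1 H2A genes, and those of Hist1h2ao and Hist1h2ap were 0.095 and 0.18 (adjusted p = 0.700 and 0.441). Of 34 tested cell type markers 4 also passed on Mki67 in limma: the epithelial keratin Krt14 fell (slope -1.93, adjusted p = 0.0246), and the endothelial receptors Kdr (0.57, 0.00276) and Tek (0.60, 0.00395) and the leukocyte phosphatase Ptprc (0.58, 0.00901) rose. Their part in the slopes of the members was not tested.

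The calls other than that of Hist2h2aa2 were lost without IGF1 tumor 160. Its Mki67 was 6.88 RPKM, against 15.3 in the next lowest IGF1 tumor, while it had the highest Hist1h4i (25.5 RPKM), Hist1h4n (2.72 RPKM) and Hist2h2aa2 (11.1 RPKM) of all 50 tumors. Hist1h4n had a mean of 0.503 RPKM, against the minimum of 0.5 for testing, and a median of 6 reads per tumor. It reached that minimum only through tumor 160, so that its slope and its r with Mki67 are a description. Without tumor 160, 1 member passed (21.9% of genes called): Hist2h2aa2, with a slope of -0.66 (SE 0.17, limma adjusted p = 0.00560). The slopes of the other 4 kept their sign: -0.39 for Hist1h4i, -0.25 for Hist1h4n, -0.40 for Hist1h2al and -0.38 for Hist1h1c (limma adjusted p = 0.170, 0.289, 0.152 and 0.171). Its values ranged from 1.22 to 5.68 RPKM (median 2.96) in vehicle, 1.48 to 5.62 (median 2.30) with insulin, 1.06 to 4.64 (median 2.83) with glargine, 0.631 to 4.30 (median 2.08) with X10 and 1.71 to 11.1 (median 2.35) with IGF1, so that the groups overlapped. Only 11.7% of the windows of Hist2h2aa2 were found in no other gene.

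As single correlations with Mki67 over 50 tumors, 6 of the 30 members passed a permutation test with Benjamini-Hochberg adjustment over 16732 genes, of which 34.3% passed. Hist2h2aa2 had r = -0.53 (p = 8e-05, adjusted p = 0.00082) and rho = -0.51 (adjusted p = 0.0040), and centred within treatments r = -0.59. That of Hist1h2al was r = -0.42 (p = 0.00246, adjusted p = 0.0109; rho = -0.42, adjusted p = 0.0212). Hist1h4i had r = -0.41 (p = 0.00282, adjusted p = 0.0121; rho = -0.33, adjusted p = 0.0774) and Hist1h4n r = -0.40 (p = 0.00376, adjusted p = 0.0151; rho = -0.23, adjusted p = 0.234). The other two were Hist1h1c (r = -0.36, adjusted p = 0.0353) and Hist2h3c2 (r = -0.35, adjusted p = 0.0379). By rank 3 members passed (19.9% of all genes), and centred within treatments 6 did (35.9%). When both tumors with Mki67 farthest from the median (IGF1 tumor 160 and the lowest vehicle tumor) were left out, r was -0.40, -0.28, -0.31 and -0.17 for the first 4 genes in this order, and Hist2h2aa2 was the 1 member that passed (adjusted p = 0.0410; 12.0% of all genes). Without IGF1 tumor 160 alone, r was -0.43, -0.33, -0.31 and -0.26, and again Hist2h2aa2 passed (adjusted p = 0.0124; 25.8% of all genes). In each of these 5 versions the share of members that passed was below that of all genes, which was not tested. Hist1h2ao (r = -0.09, rho = 0.01) and Hist1h2ap (r = -0.05, rho = 0.02) did not pass, with permutation p = 0.521 and 0.722 for r (adjusted p = 0.663 and 0.822).

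Mki67 marks all phases of the cycle outside quiescence, so the fit was repeated with the S phase score (over 29 genes such as Pcna, the Mcm helicase genes and the ribonucleotide reductase genes Rrm1 and Rrm2) in its place. The score followed Mki67 only in part (r = 0.54 over 50 tumors). In this fit 15.1% of 16703 genes passed, 12.3% positive and 2.80% negative, and of the members 6 rose and 3 fell with the score. All 6 that rose were Hist1 H2A members, the pseudogene Hist1h2aj included: Hist1h2ap by 0.42 log2 units per unit of the score (SE 0.10, limma adjusted p = 0.00341), Hist1h2ao by 0.38 (SE 0.10, adjusted p = 0.00835), Hist1h2ab by 0.31, Hist1h2af by 0.33, Hist1h2aj by 0.24 and Hist1h2ak by 0.26. The 3 that fell were Hist2h2aa2, with a slope of -0.51 (SE 0.11, adjusted p = 0.00114), Hist1h2al with -0.37 and Hist1h1c with -0.36. Both tumors at the low end were left out in turn. Without IGF1 tumor 160, 10 of the 12 Hist1 H2A genes passed with a positive slope and Hist2h2aa2 with a negative one (10.5% of genes called). Without X10 tumor 100, which had the lowest score and the lowest Hist1h2ao, 4 of the 12 passed with a positive slope and 2 other members with a negative one (12.8% called); all 12 slopes stayed positive, and their median was 0.24 against 0.25 with all tumors.

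**Figure D5:**
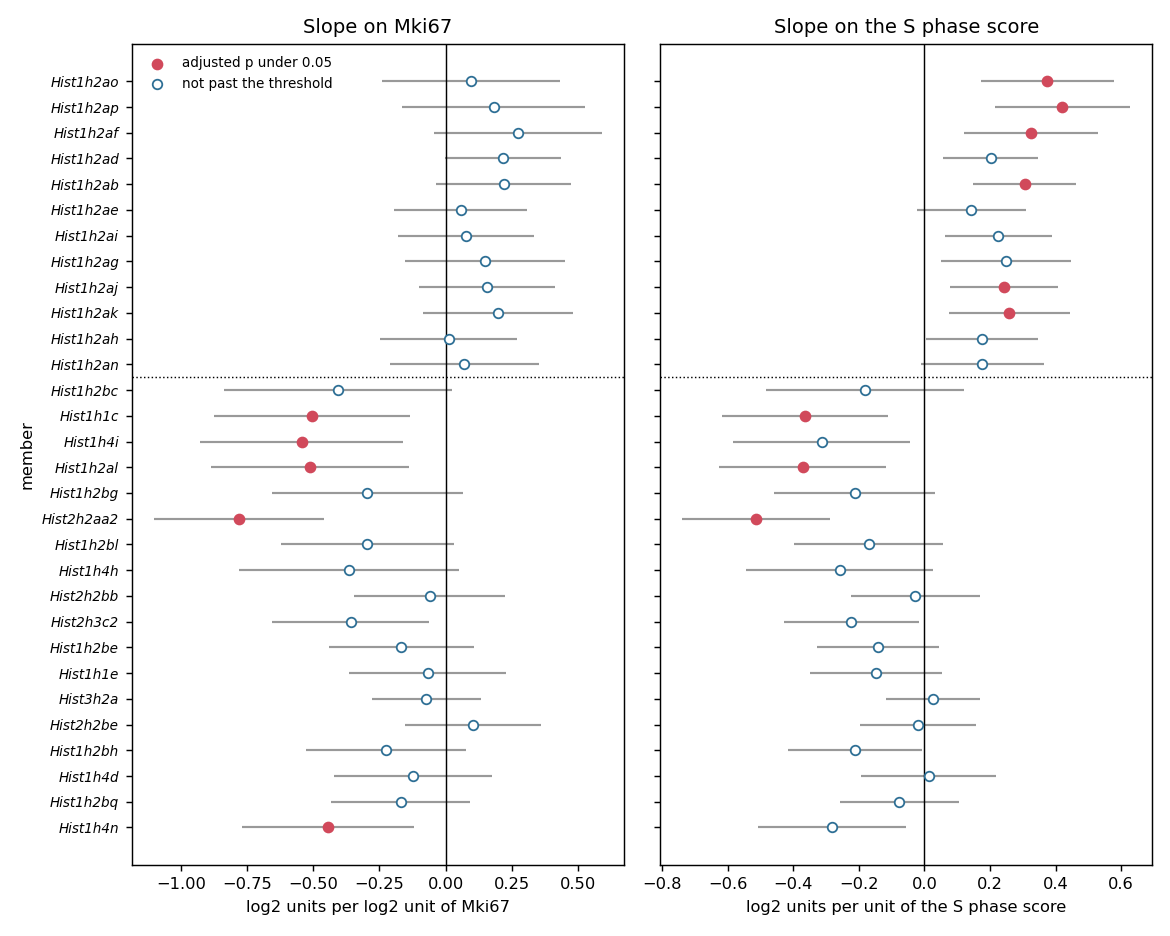
Slope of each of the 30 members tested on Mki67 (left) and on the S phase score (right) within treatments, with 95% intervals; filled points passed an adjusted p of 0.05 in limma. All 12 Hist1 H2A genes, above the dotted line, have positive slopes in both panels (on Mki67, 1 turns negative under upper quartile scaling and 4 under quantile normalization), and 17 (left) and 16 (right) of the 18 others have negative ones.

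The genes that make, process and package histone messages were set beside the members. Between treatments none of the genes on the lists passed in limma in any comparison, with 0 to 3 of 19 tested histone mRNA processing genes and 0 to 6 of 29 S phase genes at an unadjusted p under 0.05, beside 3.96% to 11.7% of all genes in the same comparisons. Both highest counts were in IGF1 against X10, where the share of all genes was 11.7%. There 22 of 29 S phase genes were higher with IGF1 (median 0.14). With the 4 ligands pooled 6 of 29 were above vehicle (median -0.08). Limma voom on recovered reads also called 0. On Mki67, where 22.6% of all genes rose and 10.7% fell, 15 of 17 mitosis genes rose, Top2a by 0.76 log2 units per log2 unit, and so did 18 of 29 S phase genes, Rrm2 by 0.76 and Pcna by 0.23. Of 19 histone mRNA processing genes 9 rose and 1 fell. Npat rose by 0.75 (SE 0.13) and Slbp by 0.34 (SE 0.10, adjusted p = 0.00524), the cap-binding gene Ncbp1 rose by 0.29, and Sympk, a scaffold of the cleavage complex, had a slope of -0.11 (adjusted p = 0.219). Without IGF1 tumor 160 Slbp no longer passed (slope 0.24, limma adjusted p = 0.0814). Npat (0.71, adjusted p = 0.000398) and Top2a (0.72, adjusted p = 0.00017) still did. Of 19 histone chaperones 9 rose, among them Atrx by 0.77 and Rbbp7 by 0.43, whereas Ssrp1 had a slope of 0.09 (adjusted p = 0.345). Of 11 genes listed as replication-independent variants, 2 rose and 1 fell, named here after their values were seen: H2afx by 0.40 and the centromeric Cenpa by 0.29, and H2afj with a slope of -0.55. H2afx is known to make a stem-loop message as well as a polyadenylated one. The most abundant did not pass: H3f3b had a slope of -0.05, H3f3a 0.08 and H2afz 0.22.

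Since messages that end at the stem-loop have no tail, RNAs of other kinds with no tail, such as Rmrp and Rn7sk, or with a very short one, such as the mitochondrial rRNAs mt-Rnr1 and mt-Rnr2, were followed as a measure of carry-over. None of the 13 tested passed in any treatment comparison, nor on Mki67. The summed log2 level of the 17 such RNAs in the table was 28.5 ± 3.83 (SD, n = 10) in vehicle and 29.1 ± 4.35, 29.6 ± 5.81, 28.6 ± 4.46 and 30.8 ± 4.06 with insulin, glargine, X10 and IGF1. Over 50 tumors it had an r of 0.24 with Hist1h2ao and 0.27 with the mean z-score of the members. With this level in the fit, Hist1h2ao differed from vehicle by -1.08 in the 4 ligands pooled, against -1.04 without it. Both are values of the contrast that chose the gene. Some RNAs in the sum lay near the floor, such as Terc with a mean of 0.21 RPKM and Scarna10 with 0.18. The part of carry-over in the differences from vehicle was not tested.

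The 5 genes outside the set whose levels went most with the mean z-score of the 30 members were Gm12497 (r = 0.61), Higd2a (0.60), Ndufs6 (0.60), Elof1 (0.60) and Tmed9 (0.59) over 50 tumors, and none of them is on the S phase or mitosis lists. The score itself had an r of -0.23 with Mki67 and -0.07 without IGF1 tumor 160. With the S phase score it had an r of 0.10, and 0.28 without that tumor. With the upper quartile of the RPKM of all tested genes in a tumor it had an r of 0.34, and 0.46 without that tumor. The part of this scale in the score was not tested.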

How the data were processed

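Mammary gland tumors of 50 mice were measured by poly-A RNA sequencing on the Ion Proton. The authors aligned reads to GRCm38 with TopHat2 2.0.10 and then Bowtie2 and counted them per gene with HTSeq 0.6.1 (versions per the submitters' processing notes). The RPKM table that the authors deposited was, by the study's methods, made with DEXSeq from read counts normalized by gene length and library size. All 50 value columns were mapped to samples and 0 were left unused.

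Each gene was tested with limma 3.58.1 (R 4.3.3) on log2(RPKM + 0.5) with an intensity trend and the 5 treatments in the fit, where the mean RPKM was 0.5 or more (16733 of 37701 genes), with Benjamini-Hochberg adjustment over all of these. Slopes on Mki67, or on the mean z-score of S phase genes, were fitted within treatments. Correlations used two-sided permutation tests with 100000 resamples (scipy 1.17.1), adjusted over all tested genes. Whole multiples of a common step, which the authors had scaled to 100 M reads, gave library sizes and reads for 16724 tested genes; at least 95.8% of low values per tumor came out whole. This fit was tested on simulated data, as was the recovery of reads. Sequence windows of 100 bases, stem-loops and coordinates came from GENCODE M21 (GRCm38; 61 members by ID, 7 by symbol; Hist2h2bb is listed there as a lincRNA), and promoters from RefSeq.

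The members and all lists were chosen with earlier results of these data known. Named genes are Hist1h2ao and Hist1h2ap, the 6 members with the highest mean RPKM, members past the threshold between ligands, the 3 members with the smallest p in each direction for the slope on Mki67, members nearest the limit of the set, up to 4 abundant genes per list with Slbp and Npat, and the 5 genes most like the members' mean z-score. Tumors came from separate mice. Alternatives were pseudocounts, filters, scalings, technical covariates, limma voom, tumors left out and other measures of proliferation.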

Additional observations from a re-analysis of the deposited data

Results flagged for a closer look

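Among 60 sets of 10 tumors (11 members and Mki67 in 5 treatments, log2 scale), 6 held a tumor set apart from its group by a gap of more than 0.466 of the group's range; chance alone flags about 1 in 20 sets. In the IGF1 group, tumor 160 was highest for Hist1h1c (52.6 RPKM, next 24.6), Hist1h4i (25.5 RPKM, next 9.55) and Hist1h4n (2.72 RPKM, next 0.605) and lowest for Mki67 (6.88 RPKM, next 15.3). In the insulin group, tumor 27 was highest for Hist1h1c (42.5 RPKM, next 24.5) and Hist1h4n (1.44 RPKM, next 0.605). Neither tumor was set apart in this way for Hist1h2ao or Hist1h2ap.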

How the results depend on the processing

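No paired analysis was possible because mouse numbers differ between the groups and none is shared. Contrasts with vehicle chose the members, so their counts across settings are no sign of stability. With insulin 2 in place of 0 passed under upper quartile scaling, quantile normalization, a minimum mean of 5 RPKM or with the non-polyadenylated RNA covariate, and 1 with library size as a covariate. With X10, 1 in place of 2 passed with library size as a covariate or only the groups compared. Between X10 with IGF1 and insulin with glargine, 1 (Hist1h2al) passed under upper quartile scaling, with library size as a covariate and without the tumor titled IFG1_132. Of 5 members called on Mki67, 3 were left at a minimum mean of 5 RPKM (6 members tested), and 1 without the 2 tumors farthest from the median Mki67 or without IGF1 tumor 160; with the S phase score 9 passed, and 11 when tumor 160 was also left out. Settings without tumor 160 or X10 tumor 100 were added after the data were seen. By correlation, with adjustment over the 30 members alone, 4 members passed, 2 by rank, 5 when centred within treatments and 0 without the 2 far tumors or without tumor 160; the adjustment over all genes, added after the data were seen, gave 6. Among Mki67 and the lists, 1 gene (H3f3a, X10 against glargine) passed under upper quartile scaling. Signs turned in 6 values of the genes described one by one, none past the threshold. Without a treatment term the slopes of Hist1h2ao and Hist1h2ap on Mki67 were -0.14 and -0.076. The difference of Hist1h4n between the strong and weak ligands was -0.013 with a pseudocount of 0.1, -0.084 by limma voom, -0.075 with Mki67 as a covariate and -0.068 without tumor 160. Among the 12 Hist1 H2A members, 4 slopes on Mki67 turned negative under quantile normalization and 1 under upper quartile scaling, and 3 negative differences of IGF1 from glargine turned positive under quantile normalization. The causes were not tested. Poly-A selection and shared sequence limit these levels, and members with means under 0.5 RPKM had means of 1.8 to 49.8 reads per tumor.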
